A study of Mus musculus with 20 samples.

Results

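Short-lived nuclear RNAs reach the RNA exosome, the main 3′ to 5′ nuclease of the nucleus, through adaptor complexes. The poly(A) tail exosome targeting connection (PAXT) joins the RNA helicase MTR4 to the zinc-finger protein ZFC3H1 and takes up polyadenylated nuclear RNA. The cap-binding complex holds the 5′ cap of new transcripts and, with the zinc-finger protein SRRT (also called ARS2), hands them to export or to decay. The genes described here encode these adaptors: Zfc3h1, Pabpn1, Zc3h3, Rbm26 and Rbm27 on the PAXT side, and Srrt, Ncbp1, Ncbp2, Zc3h18 and Phax on the cap side. The members are a list of gene symbols, mapped with the GENCODE M21 annotation, and no measured value enters the rule. All 10 were found among the 55471 genes counted, and all 10 were among the 15297 genes with enough counts to test. Each also had a row among the 55471 PROMPT rows, and all 10 were among the 17655 PROMPT rows tested. A PROMPT (promoter upstream transcript) is a short unstable RNA made upstream of a gene's start and normally removed by the exosome.

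The cells were SIMS, a mouse salivary gland line, grown in DMEM with 10% fetal bovine serum. The 5 groups of 4 libraries were unedited wild type, a Btbd7 knockout (KO) that served as the negative control, and 3 Zcchc8 KO clones numbered 1, 2 and 3. The edits were made with CRISPR/Cas9, each clone is 1 cell line, and no label says whether the libraries of a line came from separate cultures. The p-values therefore measure the spread between libraries, which may be technical. ZCCHC8 is the scaffold of NEXT, the adaptor complex that takes unprocessed RNA without a poly(A) tail to the same helicase and exosome. BTBD7 is a BTB domain protein studied in salivary gland branching.

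Gene counts per library ran from 6833258 to 17771804, and PROMPT counts from 1569548 to 3966608. Depth went with group in part: WT libraries held 13876944 to 17771804 gene counts and clone 1 libraries 6833258 to 7683444, with no overlap. WT replicate 1 stood apart, with 14245 genes that had a count against 17442 to 18791 in the other WT libraries, and it is not among the 19 libraries of the PROMPT table. Zcchc8 RNA was 65.1 ± 2.92 CPM (counts scaled by each library's total after TMM adjustment; SD, n = 4) in WT and 60.3 ± 4.28, 23.3 ± 1.35 and 54.6 ± 4.84 in clones 1, 2 and 3, so only clone 2 had a large loss of the edited gene's RNA. Btbd7 RNA was 202 ± 7.64 CPM in WT and 99.2 ± 3.23 in Btbd7 KO. The summed level of 7 salivary epithelial markers was 3063 to 4749 CPM in WT and 3861 to 3996 in Btbd7 KO. It was 2852 to 3401, 3232 to 3645 and 2812 to 3214 in clones 1, 2 and 3. These markers did not move alike. Mean Aqp5 was 178 CPM in WT, 111 in Btbd7 KO and 147, 137 and 117 in the clones, in order. Mean Krt19 was 229 CPM in WT, 286 in Btbd7 KO and 180, 346 and 154 in the clones. Mean Epcam was 358 CPM in WT, 314 in Btbd7 KO and 380, 358 and 379 in the clones. In WT, markers of other cells summed to 253 to 398 CPM for 4 basal and myoepithelial genes (mostly Krt14, with Acta2 at 0), 9.30 to 15.4 for 4 mesenchyme genes, 4.52 to 6.19 for 3 immune genes (all Cd68, with Ptprc and Aif1 at 0) and 0 to 0.352 for 2 endothelial genes (Cdh5 at 0). The basal and myoepithelial sum was 400 to 421 CPM in Btbd7 KO, above WT. In clones 1 and 3 it was 164 to 214 and 194 to 225, below WT, and in clone 2 it was 277 to 346. The mesenchyme sum, mostly Col1a1, was 16.7 to 26.5 CPM in Btbd7 KO and 9.88 to 13.4, 25.2 to 29.2 and 21.1 to 25.9 in clones 1, 2 and 3, and the immune sum was 8.07 to 13 in clone 1 and 9.26 to 11 in clone 2. The part these play in the results was not tested.

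Sequence upstream of the start is shown for the 3 members on which the results below turn, and for Zfc3h1, the PAXT scaffold. RefSeq promoter sequences on GRCm38.p6 were matched for 6 of the 10 members by symbol, and each stretch below runs up to the annotated start without crossing an exon of any gene. They are written 5′ to 3′ on the gene's strand. Capitals mark CCAAT or GGGCGG on either strand (ATTGG is CCAAT read on the other strand), the motifs known as the CCAAT box and the GC box. Rbm26 (chr14:105177328-105177564, minus strand) and Zc3h18 (chr8:122376445-122376608, plus strand) had the steepest PROMPT rise, and Srrt (chr5:137307675-137307924, minus strand) is the member whose own RNA rose. Zfc3h1 lies at chr10:115384709-115384958, plus strand.
Rbm26: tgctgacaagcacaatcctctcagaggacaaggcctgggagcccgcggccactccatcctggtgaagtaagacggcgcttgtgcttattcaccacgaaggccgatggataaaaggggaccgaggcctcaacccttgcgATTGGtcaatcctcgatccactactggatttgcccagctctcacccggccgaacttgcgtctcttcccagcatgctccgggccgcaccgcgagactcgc
Zc3h18: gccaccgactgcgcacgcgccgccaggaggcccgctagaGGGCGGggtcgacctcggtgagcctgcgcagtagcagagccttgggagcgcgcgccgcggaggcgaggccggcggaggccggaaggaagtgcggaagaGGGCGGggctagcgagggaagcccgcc
Srrt: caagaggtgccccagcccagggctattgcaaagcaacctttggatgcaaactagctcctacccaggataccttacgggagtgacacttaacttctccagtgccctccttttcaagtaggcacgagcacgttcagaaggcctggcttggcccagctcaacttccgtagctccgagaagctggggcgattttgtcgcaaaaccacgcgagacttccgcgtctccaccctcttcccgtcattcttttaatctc
Zfc3h1: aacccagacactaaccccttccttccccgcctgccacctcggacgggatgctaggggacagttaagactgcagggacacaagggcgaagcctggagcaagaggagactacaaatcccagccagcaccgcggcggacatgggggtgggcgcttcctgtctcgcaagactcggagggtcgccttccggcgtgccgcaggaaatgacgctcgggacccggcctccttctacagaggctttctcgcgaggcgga
The Rbm26 stretch held 1 CCAAT and the Zc3h18 stretch 2 GGGCGG, whereas the Srrt and Zfc3h1 stretches held neither. Over 32851 promoters of 300 bases, 37.4% held CCAAT and 35.7% GGGCGG on either strand. GC content was 59.9% over 237 bases at Rbm26, 76.2% over 164 at Zc3h18, 54.4% over 250 at Srrt and 64% over 250 at Zfc3h1. The poly(A) signal AATAAA, which marks where many upstream antisense RNAs end, was in none of the 6 members' promoters and in 19.6% of all.

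Among the 10 genes, Srrt rose, Rbm26, Ncbp1 and Phax fell, and the other 6 passed no test when the 3 Zcchc8 KO clones, averaged, were compared with WT. Against this, 16.2% of all genes tested were called higher and 19.9% lower, so 1 and 3 of 10 are near the share of all genes. The members' median log2 difference was 0.04, beside -0.01 over all genes. A gene was called where edgeR's quasi-likelihood test gave a Benjamini-Hochberg adjusted p under 0.05 over all genes. Without TMM scaling, which adjusts library sizes for composition, the split over all genes moved from 2474 higher and 3046 lower to 3229 and 2005, and with DESeq2 to 3101 and 2647. In these bulk libraries, fewer cells of a kind and less RNA per cell cannot be told apart.

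**Figure D1:**
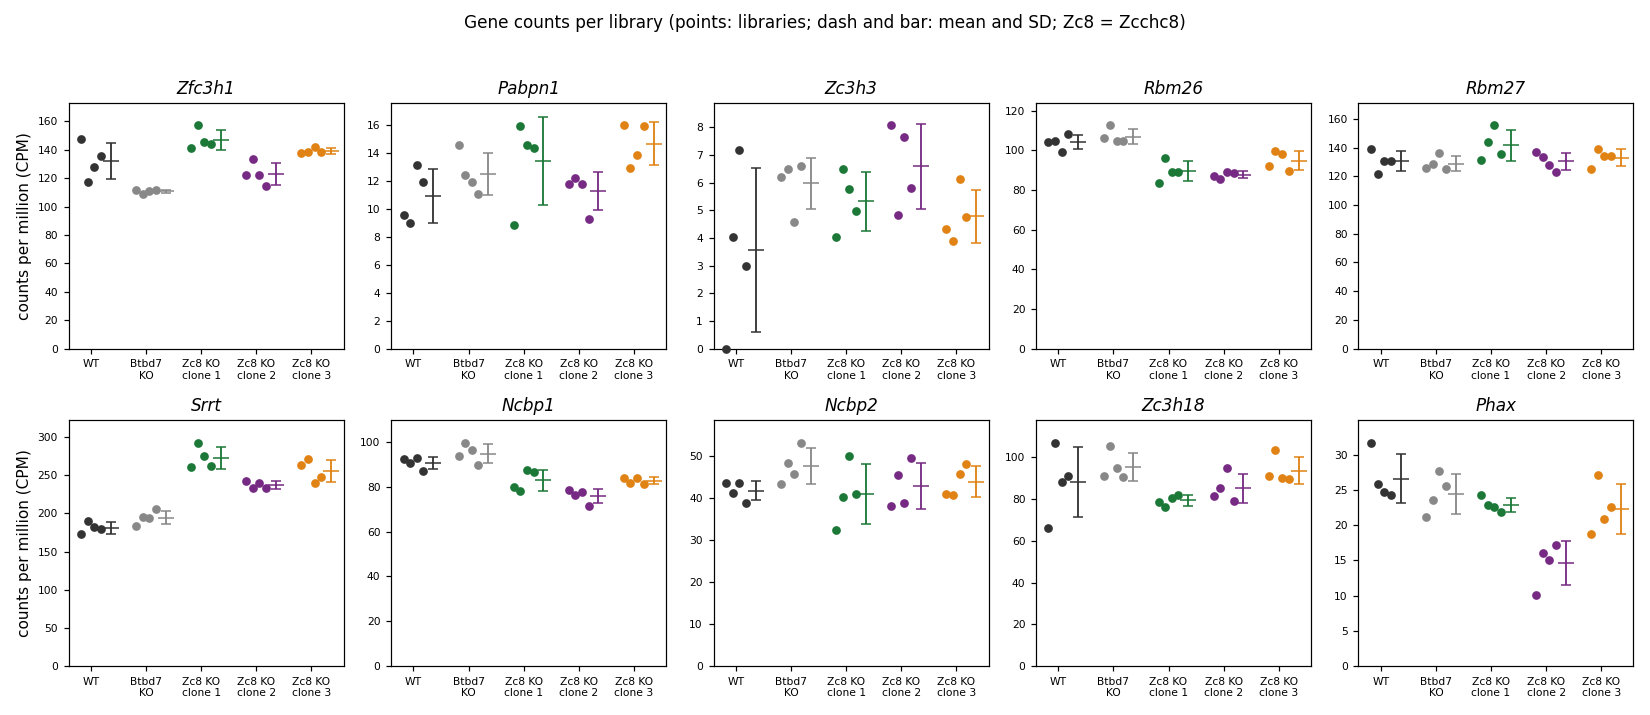
Gene levels in CPM in every library for the 10 members, by group, on linear axes from 0, with the mean and SD beside the points. Srrt sits at 233 to 292 CPM in the 12 Zcchc8 KO libraries and at 173 to 206 in the 8 control libraries, and Phax is lowest in clone 2.

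Srrt (chr5:137295704-137307674, minus strand) encodes the cap-complex partner that many decay and processing factors bind. It measured 173, 191, 182 and 179 CPM in the 4 WT libraries and 183, 195, 194 and 206 in Btbd7 KO. It measured 261, 292, 276 and 262 CPM in clone 1, 243, 233, 240 and 233 in clone 2, and 263, 272, 239 and 248 in clone 3. All 12 Zcchc8 KO libraries lay above all 8 control libraries, with no overlap. The log2 difference of the KO mean from WT was 0.49 (SE 0.0461; edgeR adjusted p = 7.80e-09), and each clone was called, with 0.59, 0.39 and 0.50 for clones 1, 2 and 3. The size differed between the clones (edgeR test of equal clones, adjusted p = 0.0203). Against Btbd7 KO the difference was 0.39 (SE 0.0460; edgeR adjusted p = 1.83e-07). With each cell line counted as 1 sample, 3 clones against 2 control lines, Srrt was 0.42 higher with an edgeR adjusted p of 0.0584, and none of the 10 genes was called. The shares of all genes given above belong to the fit over libraries, and the share in this setting is not given here. The missing calls are therefore not read as a trait of the members.

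Rbm26 (chr14:105106751-105177327, minus strand) and Rbm27 are paralogous zinc-finger RNA-binding proteins that join PAXT. Rbm26 measured 104, 105, 99.4 and 108 CPM in WT, 106, 113, 105 and 104 in Btbd7 KO, and 83.6 to 99.6 in the Zcchc8 KO libraries. Of the 12 KO libraries, 11 lay below all 8 controls, and clone 3 replicate 2, at 99.6, overlapped the lowest WT library. The KO mean was lower by a log2 difference of -0.20 (SE 0.0471; edgeR adjusted p = 0.00138), called in clones 1 and 2 but not in clone 3 (-0.14, edgeR adjusted p = 0.0774). The clone 1 call was lost at equal depth (-0.16, edgeR adjusted p = 0.0555) and without TMM scaling (-0.15, edgeR adjusted p = 0.0586). Rbm27 measured 121 to 139 CPM in WT and 123 to 156 in the KO libraries, which overlapped, with a log2 difference of 0.05 (SE 0.0504). Per kilobase of exon, the log2 level of Rbm26 relative to Rbm27 was -0.53 ± 0.0964 (SD, n = 4) in WT and -0.86 ± 0.102, -0.78 ± 0.0914 and -0.69 ± 0.0633 in the clones, in order of their numbers.

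Ncbp1 (chr4:46138613-46172403, plus strand) encodes the large subunit of the cap-binding complex and Ncbp2 (chr16:31948513-31961781, plus strand) the small subunit that holds the cap. Ncbp1 measured 92.3, 90.4, 92.6 and 87.0 CPM in WT, 93.6, 99.6, 96.4 and 89.8 in Btbd7 KO, and 71.6 to 87.3 in the Zcchc8 KO libraries. Of these 12, 11 lay below every control library. The KO mean differed by -0.17 (log2; SE 0.0476; edgeR adjusted p = 0.00634), called by itself in clone 2 alone (-0.26). The call of the KO mean was lost without TMM scaling (-0.091, edgeR adjusted p = 0.149), with all libraries drawn down to equal depth (-0.12, edgeR adjusted p = 0.0937) and with no filter on low counts (edgeR adjusted p = 0.0579). Ncbp2 measured 38.7 to 43.5 CPM in WT and 32.4 to 49.8 in the KO libraries, and its log2 difference was 0.03 (SE 0.0872).

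Phax encodes the adaptor that carries capped small nuclear RNAs out of the nucleus. It lies on chromosome 18, with the opposite-strand gene Aldh7a1 annotated across its start and 300 bases of Phax exon shared with Aldh7a1 exons. Aldh7a1 was not called in the KO mean (log2 -0.32, SE 0.277) or in clone 2 (-0.69, edgeR adjusted p = 0.136). Against Btbd7 KO it was lower in the KO mean (-1.01, edgeR adjusted p = 0.00356). Phax measured 31.7, 25.9, 24.7 and 24.2 CPM in WT, 21.1, 23.5, 27.7 and 25.6 in Btbd7 KO, 24.2, 22.9, 22.6 and 21.9 in clone 1, 10.1, 16.1, 15.1 and 17.2 in clone 2, and 18.7, 27.1, 20.9 and 22.6 in clone 3. All 4 clone 2 libraries and clone 3 replicates 1 and 3 lay below every control, 6 of 12 in all, and the other libraries of clones 1 and 3 overlapped the controls. The KO mean differed by -0.44 (log2; SE 0.109; edgeR adjusted p = 0.00246), but the clones were unequal (edgeR adjusted p = 0.00187), with -0.84 in clone 2 and -0.22 and -0.26 in the other two. Clone 2 is also the clone with the lowest Zcchc8 RNA. The basal cell marker Trp63 was 20.7 ± 1.51 CPM (SD, n = 4) in clone 2, against 2.43 ± 1.11 in WT and 0.570 ± 0.337 in Btbd7 KO. In clones 1 and 3 Trp63 was 1.47 ± 1.01 and 4.00 ± 0.875 CPM. Other genes of that list did not rise in clone 2. Krt14 was 287 ± 28.6 CPM there and 319 ± 63.8 in WT, and Krt5 0.0713 ± 0.143 and 0.341 ± 0.683. The 4 basal and myoepithelial markers summed to 277 to 346 CPM in clone 2, inside the 253 to 398 of WT, with Acta2 at 0 in both. The part these play in the Phax level was not tested.

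Zfc3h1 (chr10:115384959-115432772, plus strand) was the member that moved in the control knockout. It measured 148, 117, 128 and 136 CPM in WT and 112, 109, 111 and 112 in Btbd7 KO, all 4 below every WT library. The Btbd7 KO difference was -0.25 (log2; SE 0.0638; edgeR adjusted p = 0.00644), and it was not called when the fit held only those 2 groups (edgeR adjusted p = 0.0628). In the KO clones Zfc3h1 measured 141 to 157 CPM in clone 1, 115 to 134 in clone 2 and 137 to 142 in clone 3. The mean of the clones did not pass against WT (0.04, SE 0.0519; edgeR adjusted p = 0.554), although the test of equal clones gave an edgeR adjusted p of 0.00950. In clone 1 Zfc3h1 was not called (0.16, edgeR adjusted p = 0.0606), but many alternatives called it higher. They were DESeq2 (0.20, adjusted p = 0.0155), equal depth (0.20, edgeR adjusted p = 0.0202), no TMM scaling (0.23, edgeR adjusted p = 0.00635) and TMM over filtered genes (0.19, edgeR adjusted p = 0.0280). With 1 library left out, 13 of 20 fits called it, among them the fit without WT replicate 1 (0.24, edgeR adjusted p = 0.00200).

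Pabpn1 (chr14:54892500-54898169, plus strand) encodes the nuclear poly(A)-binding protein that brings tailed RNA to PAXT, and Zc3h3 (chr15:75754430-75841915, minus strand) a zinc-finger PAXT partner. Pabpn1 measured 9.03 to 13.2 CPM in WT and 8.86 to 16.0 in the KO libraries, with a log2 difference of 0.26 (SE 0.138; edgeR adjusted p = 0.143). In clone 3 alone it was called higher (0.44, edgeR adjusted p = 0.0495), a call lost at equal depth (0.32, edgeR adjusted p = 0.201), among other settings. With 1 library left out, 13 of 20 fits lost that call, among them the fit without WT replicate 2 (0.36, edgeR adjusted p = 0.131). Without clone 1 replicate 1 the KO mean was called (0.32, edgeR adjusted p = 0.0415). The annotated read-through gene Gm20521 shares 651 of the 3035 exonic bases of Pabpn1 on the same strand and had 0 counts in every library, and the rule for reads that fit both is not given in the sources used here. Zc3h3 had 0, 70, 96 and 51 counts in the 4 WT libraries and 31 to 134 in the KO libraries. The 0 belongs to WT replicate 1, the library that stood apart. Zc3h3 differed by 0.64 (log2; SE 0.403; edgeR adjusted p = 0.229) with that library and by 0.25 (edgeR adjusted p = 0.391) without it. Zc3h18 (chr8:122376609-122417360, plus strand), which links the cap complex to NEXT, measured 66.3 to 107 CPM in WT and 76.2 to 104 in the KO libraries, with a log2 difference of -0.04 (SE 0.0793).

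Leaving out WT replicate 1 kept the same 4 calls among the 10 genes: Srrt 0.49, Rbm26 -0.18, Ncbp1 -0.14 (edgeR adjusted p = 0.0353) and Phax -0.32 (edgeR adjusted p = 0.0145). Without WT replicate 3, Zc3h3 was called higher (1.21, edgeR adjusted p = 0.0334), as it was with no filter on low counts (0.64, edgeR adjusted p = 0.0378).

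By clone, 1 member was called higher and 1 lower in clone 1, where 16.7% and 19.1% of all genes were. In clone 2 the counts were 1 and 3, beside 16.1% and 16.2% of all genes, and in clone 3 they were 2 and 0 (2 lower at an unadjusted p under 0.05, 0 by DESeq2), beside 14.0% and 15.3%. In Btbd7 KO edgeR and DESeq2 called no member higher (0 at an unadjusted p under 0.05) and 1 lower (Zfc3h1), beside 7.73% and 8.00%. Against Btbd7 KO in place of WT, Zfc3h1 and Srrt were higher and Rbm26, Ncbp1 and Phax lower in the KO mean, beside 18.8% and 22.2% of all genes. That Phax call (edgeR adjusted p = 0.0272) was lost with DESeq2 (-0.27, adjusted p = 0.0520), at equal depth (-0.30, edgeR adjusted p = 0.0657), without TMM scaling (-0.24, edgeR adjusted p = 0.0899) and without Btbd7 KO replicate 2, 3 or 4 or clone 3 replicate 1 (edgeR adjusted p = 0.0562, 0.141, 0.0854 and 0.0544). The test of equal clones called Zfc3h1, Srrt and Phax, and 28.5% of all genes. These comparisons share the WT or the KO libraries, so their agreement is not independent.

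Per kilobase of annotated exon, the WT levels ran from Srrt at 34.5 ± 1.43 CPM per kb (SD, n = 4) and Ncbp1 at 26.8 ± 0.770 down to Pabpn1 at 3.60 ± 0.646 and Zc3h3 at 1.01 ± 0.844. Between them came Rbm27 at 19.6, Ncbp2 at 18.1 and Zfc3h1 at 16.8 CPM per kb, whose neighbours in this order overlapped, and then Rbm26 at 13.6, Phax at 12.0 and Zc3h18 at 9.60, which overlapped likewise. Srrt was first and Zc3h3 last in all 5 groups. The level of Srrt relative to Ncbp1, per kilobase on the log2 scale, was 0.37 ± 0.0772 (SD, n = 4) in WT and 0.41 ± 0.108 in Btbd7 KO, against 1.09 ± 0.131, 1.01 ± 0.0405 and 0.99 ± 0.0921 in clones 1, 2 and 3.

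The PROMPT regions of the same genes behaved otherwise: 8 of 10 rose in the KO mean and none fell by edgeR or DESeq2 (1 at an unadjusted p under 0.05, Phax), where 39.9% of all PROMPT regions were called higher and 3.31% lower. The members' median log2 difference was 0.83, beside 0.45 over all regions tested. The 8 were, from the steepest, Rbm26, Zc3h18, Rbm27, Zc3h3, Zfc3h1, Pabpn1, Srrt and Ncbp2, with Ncbp1 and Phax not called. PROMPT counts were scaled by the gene totals. Scaled within the PROMPT table instead, the median over all regions fell from 0.45 to 0.02, the regions called over all went from 7036 higher and 585 lower to 5054 and 3665, and the members' values moved with it. How far a PROMPT region reaches and which strand it counts is not given in the sources used here, so regions of different genes are not compared by level.

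**Figure D2:**
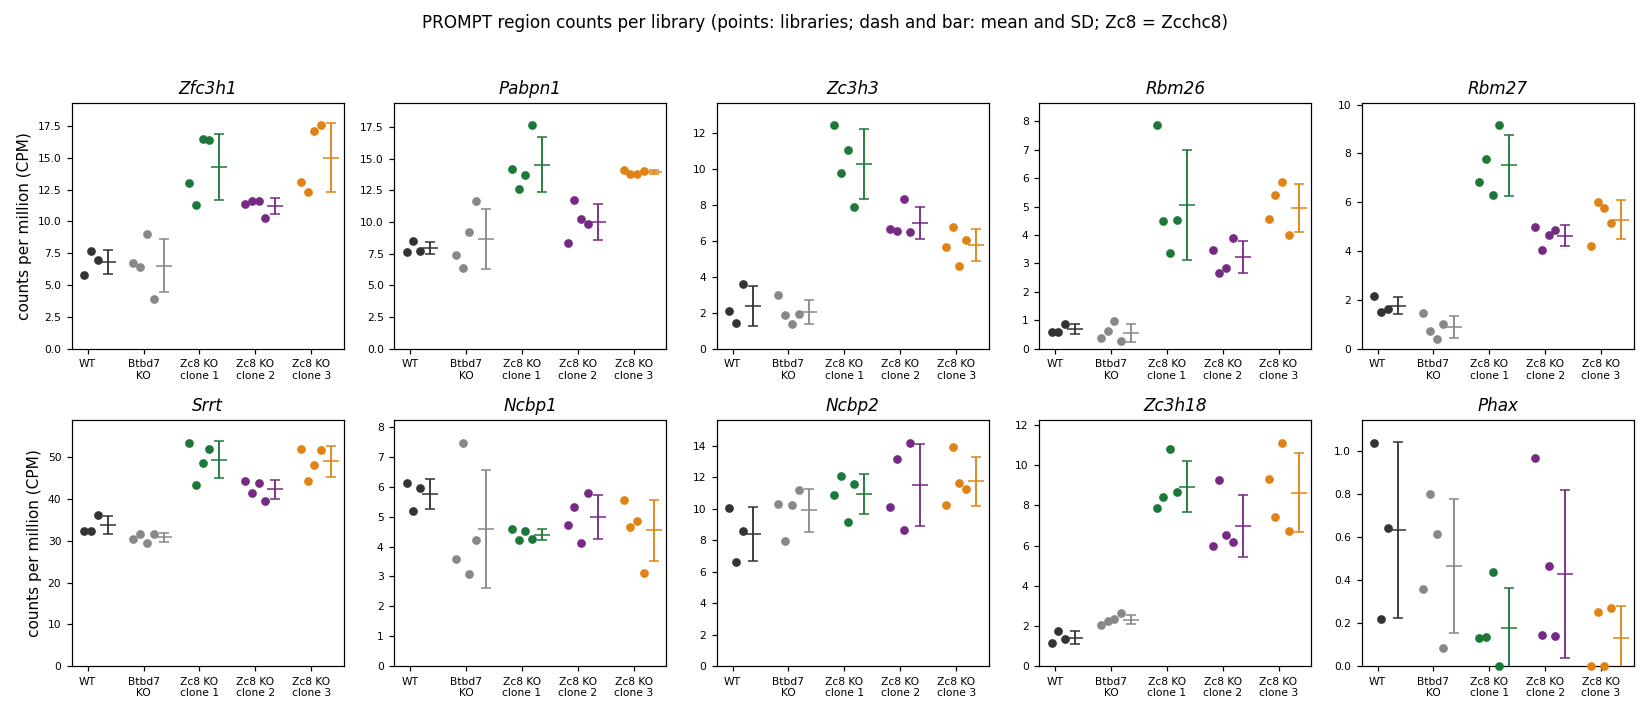
PROMPT region levels in CPM in every library for the 10 members, by group, on linear axes from 0, with the mean and SD beside the points (WT has 3 libraries). In Zfc3h1, Zc3h3, Rbm26, Rbm27, Srrt and Zc3h18 the 12 Zcchc8 KO libraries lie above every control library. Pabpn1, Ncbp1, Ncbp2 and Phax overlap. How many of all regions separate in this way was not counted, and 39.9% of all were called higher in the KO mean against WT.

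The Rbm26 region, whose upstream sequence is printed above, had 10, 8 and 15 counts in the 3 WT libraries and 6, 9, 8 and 3 in Btbd7 KO. In CPM these were 0.577 to 0.874 and 0.254 to 0.986. The KO libraries measured 7.87, 4.49, 3.36 and 4.51 CPM in clone 1, 3.46, 2.66, 2.84 and 3.90 in clone 2, and 4.55, 5.39, 5.88 and 4.00 in clone 3. Every KO library was above every control. The log2 difference was 2.63 (SE 0.342; edgeR adjusted p = 1.62e-09), while Rbm26 gene counts were lower by 0.20, and no other gene is annotated within 5 kb upstream.

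Zc3h18, also printed above, had a region at 1.15, 1.77 and 1.34 CPM in WT and 2.04, 2.27, 2.34 and 2.62 in Btbd7 KO. The KO libraries measured 7.87, 8.43, 10.8 and 8.64 CPM in clone 1, 5.96, 9.28, 6.55 and 6.20 in clone 2, and 9.31, 7.40, 11.1 and 6.72 in clone 3. The groups did not overlap, and the 4 Btbd7 KO libraries also lay above the 3 WT libraries, with a difference that was not called (0.71, SE 0.282; edgeR adjusted p = 0.172). The log2 difference of the KO mean was 2.52 from WT (SE 0.236; edgeR adjusted p = 2.99e-14) and 1.82 from Btbd7 KO (SE 0.198; edgeR adjusted p = 5.81e-12). A noncoding gene on the same strand, Gm20681, ends 165 bases before the start of Zc3h18 and covers 86 of the 250 bases upstream, yet its own row held at most 9 counts in a WT library and was not tested.

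The 2 other regions with differences above 1 on the log2 scale belong to PAXT partners. The Rbm27 region measured 2.13, 1.48 and 1.63 CPM in WT, 1.44, 0.733, 0.370 and 1.02 in Btbd7 KO and 4.03 to 9.16 in the KO libraries, with a log2 difference of 1.68 (SE 0.255; edgeR adjusted p = 9.74e-08). An opposite-strand transcript annotated 156 bases upstream, AC125110.1, rose in the gene table as well (2.00, SE 0.335; edgeR adjusted p = 4.41e-05), from 0.868 ± 0.298 CPM in WT (SD, n = 4) to 1.99 to 5.28 in the KO libraries. The Zc3h3 region measured 2.08, 1.40 and 3.61 CPM in WT, 3.00, 1.87, 1.36 and 1.95 in Btbd7 KO and 4.60 to 12.5 in the KO libraries, with a log2 difference of 1.64 (SE 0.230; edgeR adjusted p = 1.34e-08). Both stood clear of the controls in all 12 KO libraries. The Zc3h3 region differed in size between the clones (2.10, 1.55 and 1.27; edgeR adjusted p = 0.0213), and no gene is annotated within 5 kb upstream of Zc3h3.

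The Zfc3h1 region measured 5.77, 7.68 and 6.99 CPM in WT, 6.71, 6.40, 9.00 and 3.89 in Btbd7 KO and 10.2 to 17.6 in the KO libraries, above every control. Its log2 difference was 0.98 (SE 0.163; edgeR adjusted p = 8.08e-07), against 0.04 for the gene. The opposite-strand gene Thap2 starts 516 bases upstream and was not called (-0.14, SE 0.139).

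The Pabpn1 region measured 7.61 to 8.50 CPM in WT, 6.33 to 11.7 in Btbd7 KO and 8.31 to 17.7 in the KO libraries. Of the 12 KO libraries, 9 lay above every control, and the log2 difference was 0.68 (SE 0.150; edgeR adjusted p = 0.000115). Clone 2 was not called by itself (0.35), and the clones differed (edgeR adjusted p = 0.0354). Bcl2l2, on the same strand, ends 4266 bases upstream and was not called in the KO mean (0.19, SE 0.0869). It was called higher in clone 1 (0.30, edgeR adjusted p = 0.0318) and lower in Btbd7 KO (-0.37, edgeR adjusted p = 0.0179). Against Btbd7 KO it was higher in the KO mean (0.56, edgeR adjusted p = 1.73e-05). The RefSeq start of Pabpn1 used for the promoter match lies inside the GENCODE gene, downstream of its first annotated start.

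The Srrt region was the called region whose difference was no larger than that of its gene. It measured 32.5, 32.5 and 36.3 CPM in WT, 30.4, 31.7, 29.6 and 31.8 in Btbd7 KO and 39.6 to 53.5 in the KO libraries, above every control. The log2 difference was 0.47 (SE 0.0893; edgeR adjusted p = 9.84e-06), beside 0.49 for Srrt itself. Trip6, the nearest same-strand gene, ends 1980 bases upstream and was also called higher, by 0.16 (log2; SE 0.0561; edgeR adjusted p = 0.0255). By clone, Trip6 was called higher in clone 1 (0.29) and clone 3 (0.25) but not in clone 2 (-0.054, edgeR adjusted p = 0.590). Against Btbd7 KO it was higher in the KO mean (0.36, edgeR adjusted p = 1.69e-05).

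Ncbp2 has the closest upstream neighbour, 0610012G03Rik, which starts 19 bases away on the opposite strand and was not called (0.26, SE 0.141). The Ncbp2 region measured 10.0, 6.65 and 8.57 CPM in WT and 8.63 to 14.2 in the KO libraries, which overlapped, with a log2 difference of 0.43 (SE 0.153; edgeR adjusted p = 0.0174). The call was lost without WT replicate 3 (0.29, edgeR adjusted p = 0.185) and at equal depth (0.38, edgeR adjusted p = 0.0754). The calls of this region in clones 2 and 3 were lost in both cases too.

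The regions of Ncbp1 and Phax, the 2 without a call, are those with an opposite-strand gene annotated across the start. Whether this bears on the missing calls was not tested, here or over all regions. Exons of Tstd2 cover 234 of the 250 bases upstream of the RefSeq start of Ncbp1. The Ncbp1 region measured 6.11, 5.17 and 5.94 CPM in WT, 3.08 to 7.47 in Btbd7 KO and 3.12 to 5.78 in the KO libraries, with a log2 difference of -0.31 (SE 0.205; edgeR adjusted p = 0.224). Tstd2 itself was not called (-0.08, SE 0.0870). The Phax region held 18, 3 and 11 counts in WT, 6, 12, 5 and 1 in Btbd7 KO and 0 to 8 in the KO libraries, so at this depth a difference of -1.58 (log2; SE 0.708; edgeR adjusted p = 0.0653) could not be told from 0. It was called lower without WT replicate 3 (-1.96, edgeR adjusted p = 0.0376), without clone 1 replicate 3 (-1.87, edgeR adjusted p = 0.0369) and without clone 3 replicate 4 (-1.85, edgeR adjusted p = 0.0392).

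Under scaling within the PROMPT table, the Pabpn1 (0.29, edgeR adjusted p = 0.102), Srrt (0.07, edgeR adjusted p = 0.499) and Ncbp2 (0.03, edgeR adjusted p = 0.879) calls were lost. The Ncbp1 (-0.71, edgeR adjusted p = 0.00240) and Phax (-1.97, edgeR adjusted p = 0.0131) regions became lower. In the KO mean, the 5 steepest rises, those of Rbm26, Zc3h18, Rbm27, Zc3h3 and Zfc3h1, were called under both scalings. In clone 2 the Zfc3h1 region lost its call with scaling within the PROMPT table (0.37, edgeR adjusted p = 0.104).

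By clone, 7 member regions were called higher in clone 1 and 7 in clone 2, beside 39.3% and 36.0% of all regions, and 8 in clone 3, beside 36.7%. None was called lower by edgeR or DESeq2 in any clone, beside 3.79%, 3.09% and 2.41%, and at an unadjusted p under 0.05 there was 1 in clone 3 (Phax) and 0 in clones 1 and 2. In Btbd7 KO no member region was called in either direction, where 1.35% and 1.68% of all were. At an unadjusted p under 0.05 there were 1 higher (Zc3h18) and 1 lower (Rbm27, -0.89, edgeR adjusted p = 0.140), and DESeq2 called 0. Against Btbd7 KO, 7 regions were higher and none lower in the KO mean, beside 45.6% and 5.77%, with Ncbp2 not called (0.21, edgeR adjusted p = 0.211). The test of equal clones called the Pabpn1 and Zc3h3 regions, and 10.9% of all.

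**Figure D3:**
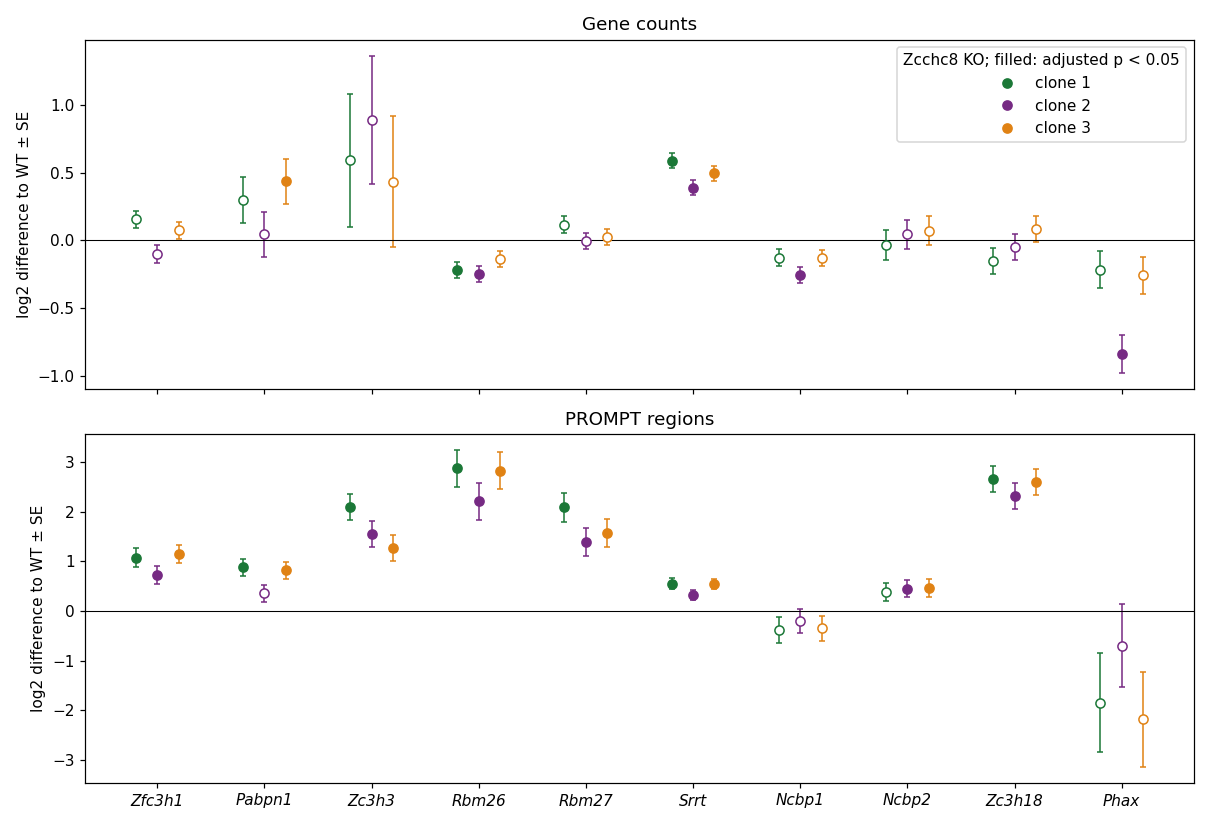
Log2 difference of each Zcchc8 KO clone from WT, with its SE, for gene counts (top) and PROMPT regions (bottom), with filled points for an edgeR adjusted p under 0.05. Phax gene counts separate clone 2 (-0.84) from clones 1 and 3, while the Rbm26 and Zc3h18 regions lie above 2 in each clone.

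To see whether a region moved apart from its own gene, PROMPT counts divided by gene counts, as a log2 ratio, were tested with limma over 11386 genes. It rose for 5 members, Rbm26 (2.79, SE 0.337; limma adjusted p = 1.14e-06), Zc3h18 (2.63, SE 0.220; limma adjusted p = 1.30e-08), Rbm27 (1.60), Zc3h3 (1.43) and Zfc3h1 (0.85), and fell for none. Over all genes 46.2% of ratios rose and 8.91% fell, so 5 of 10 is near that share, and the members' median was 0.65 beside 0.73. The Srrt ratio was -0.02 (SE 0.114; limma adjusted p = 0.918), the region and the gene having differed by 0.47 and 0.49. The Zc3h3 ratio was not called without WT replicate 3 (0.77, limma adjusted p = 0.0734). In Btbd7 KO no member's ratio was called, where 0.343% rose and 0.272% fell. Against Btbd7 KO, 6 rose, the same 5 with Pabpn1 (0.51, limma adjusted p = 0.0333), and none fell, beside 48.5% and 9.79%. The Pabpn1 ratio was not called without Btbd7 KO replicate 1 or 2 (0.37 in each case, limma adjusted p = 0.158).

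**Figure D4:**
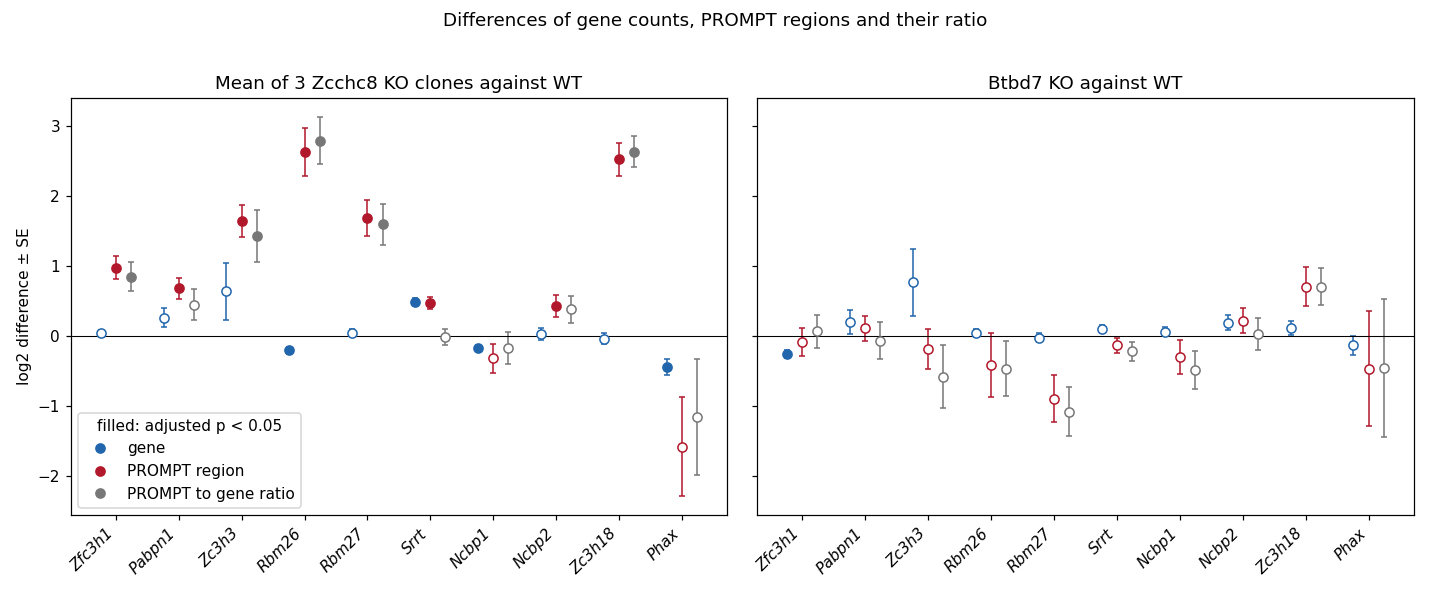
Log2 differences with their SE for gene counts, PROMPT regions and the PROMPT to gene ratio of each member, in the Zcchc8 KO mean against WT (left) and Btbd7 KO against WT (right), with filled points for an adjusted p under 0.05. On the left, the regions of Rbm26 and Zc3h18 lie at 2.63 and 2.52 while their gene counts lie at -0.20 and -0.04; on the right, the 1 filled point is the Zfc3h1 gene.

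The partners of these adaptors were read from 5 lists, by counts of calls in the KO mean against WT, where 16.2% of all genes were called higher and 19.9% lower. All 3 NEXT genes were lower, with Zcchc8 at -0.62 and Rbm7 at -0.20, and a median of -0.27. Zcchc8 is the gene edited in these clones, so its call cannot be set against the share of all genes. By clone, 1 of the 3 was called in clone 1 and 2 in each of the others, with Zcchc8 at -0.11, -1.48 and -0.26 in clones 1, 2 and 3, and against Btbd7 KO 2 were called, Rbm7 (-0.069) not among them. Of 13 exosome genes tested, 6 were lower and none higher, with a median of -0.21, and Exosc9, a core subunit, had the lowest value (-0.38) and Exosc3, another core subunit, the highest, at an uncalled 0.36. Of 9 genes for cap partners and early termination, 2 were higher and 1 lower (median 0.04), from the NELF subunits Nelfe at 0.39 to Nelfa at -0.21. Of 17 genes for the poly(A) tail and export, 1 was higher and 8 lower (median -0.15), with the export helicase Ddx39b at 0.40 and Thoc3, a THO subunit, at -0.38. Of 14 Integrator genes, 1 was higher and 3 lower (median -0.11), with Ints7 at 0.15 and Ints12 at -0.35. The median over all genes was -0.01.

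For each of the 4 called members, the tested gene whose pattern was most like it over the 20 libraries was found among 10777 genes, by the root mean square difference of centred log2 CPM. It was Leng8 for Srrt (0.0973), Cul5 for Rbm26 (0.0641), Scyl2 for Ncbp1 (0.0601) and Pggt1b for Phax (0.162). In the same order, the next nearest gene stood close behind, at 0.103, 0.0654, 0.0694 and 0.177. The root mean square of each member's own centred values was 0.234, 0.126, 0.122 and 0.349. The genes named are therefore not read as particular partners.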

How the data were processed

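The authors deposited whole-number read counts per feature, and 2 of the deposited count tables were used here: genes (20 libraries) and PROMPT regions (19). Libraries were made with Illumina's TruSeq Stranded Total RNA kit, per the labels' protocols, and FastQC and STAR 2.7.3a were used, per the submitters' processing notes. The counter, genome build, strand setting, treatment of shared reads and extent of a PROMPT region are not given in the sources used here. Gene positions come from GENCODE M21 (GRCm38) and promoters from RefSeq (GRCm38.p6). Under R 4.3.3, edgeR 4.0.16 fitted each table once over all 5 groups (filterByExpr by group, glmQLFit, glmQLFTest), with library sizes and TMM factors from the gene table (for PROMPTs, from its 19 shared libraries), and p-values adjusted over all features. This scaling was settled after a first fit with factors over filtered genes and 20 libraries, which is kept as an alternative. The log2 of (PROMPT + 0.5) over (gene + 0.5) counts was tested with limma 3.58.1 (trend, robust). SE values were derived from the test statistic. CPM uses TMM-scaled totals. Groups follow the titles in the labels. The code was tested on simulated data. No 2 libraries of a group looked like 1 library deposited again: over 30 pairs, chi-square divided by its degrees of freedom was 2.80 to 72.1. The members, lists and named genes (members, edited genes, genes within 5 kb upstream, the highest and lowest of each list, and the nearest pattern among genes with a mean of at least 50 counts) were chosen with earlier results of these data known. Alternatives were DESeq2 1.42.0, no TMM, no filter or a mean of at least 10 counts, only the groups compared, the replicate block, equal depth, scaling within the PROMPT table, cell lines as replicates, ratio pseudocounts of 0.1 and 2, and leaving out each library.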

Additional observations from a re-analysis of the deposited data

Results flagged for a closer look

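Of 90 groups of 4 libraries checked over the members' gene and PROMPT levels, 3 held a library far from the other 3, and chance alone gives about 1 in 20. Pabpn1 gene counts in clone 2 had replicate 4 at 9.26 CPM, below 11.8 to 12.3 in the others. Zc3h18 gene counts in clone 3 had replicate 2 at 104 CPM, above 89.9 to 91.2. The Zc3h3 PROMPT region in clone 2 had replicate 3 at 8.34 CPM, above 6.48 to 6.65.

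The 3 Zcchc8 KO clones differed from each other by the test of equal clones in 5 results. In gene counts these were Zfc3h1 (edgeR adjusted p = 0.00950), Srrt (edgeR adjusted p = 0.0203) and Phax (edgeR adjusted p = 0.00187). In PROMPT regions they were Pabpn1 (edgeR adjusted p = 0.0354) and Zc3h3 (edgeR adjusted p = 0.0213). Clone 1 was the highest of the 3 in Zfc3h1 and Srrt counts and in both of these regions, and clone 2 was the lowest in Phax.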

How the results depend on the processing

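Under the alternatives run, Srrt was called higher by the KO mean in all but cell lines as replicates, and so were the Rbm26, Zc3h18, Rbm27, Zc3h3 and Zfc3h1 regions in every one. Counts of members called moved by over 1.5 times in these cases, whose cause was not tested: gene calls went from 4 to 0 with cell lines as replicates (KO mean), from 1 to 0 with only the groups compared (Btbd7 KO), from 2 to 4 with DESeq2 (clone 1), and from 2 to 1 (Pabpn1 lost) in clone 3 with no filter, equal depth, only the groups compared or the replicate block. The share of all genes called with cell lines as replicates is not given here. PROMPT calls in clone 2 went from 7 to 4 with scaling within the table, and those of the test of equal clones from 2 to 4 (DESeq2), 1 (no filter) and 0 (scaling within the table). Leaving out each library gave 2 to 5 gene calls in clone 1 (5 without WT replicate 1), 1 to 2 in clone 3, 1 to 2 in the PROMPT test of equal clones and 3 to 5 ratios in clone 2 (3 without WT replicate 2).

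The replicate numbers did not pair the libraries: deviations of same-numbered libraries correlated at 0.0059 on average in genes, over 0.1 in 2 of 40 pairs, and 4 of 20 libraries were closest to their own number. The replicate block turned 2 uncalled values, the Ncbp1 region against Btbd7 KO (0.025) and the Ncbp2 ratio in Btbd7 KO (-0.0067).

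Of the other reversals, the Srrt region in clone 2 had been called (0.32, edgeR adjusted p = 0.00878), the Ncbp2 region in clone 1 (0.37) was called without WT replicate 2 (0.52), and the Ncbp1 region against Btbd7 KO was called lower with scaling within the table (-0.46). The rest were of values that had not been called. In gene counts the reversals were Ncbp2 in clone 1 (0.014 with DESeq2, 0.049 at equal depth, 0.040 without TMM) and for the KO mean (-0.084, cell lines as replicates), Pabpn1 in clone 2 (-0.068, equal depth), Rbm27 in clone 2 (0.022 with DESeq2, 0.084 without TMM, 0.023 with TMM over filtered genes) and, without TMM, Zc3h18 in clone 2 (0.037) and for the KO mean (0.039). In PROMPT regions the reversals were, with scaling within the table, Ncbp2 in clone 1 (-0.094) and against Btbd7 KO (-0.23) and Srrt in clone 2 (-0.029), and Ncbp1 against Btbd7 KO (0.0075 with DESeq2, 0.049 without TMM). TMM over filtered genes and over 20 libraries were chosen after seeing the data.

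With each library left out in turn, these values crossed 0. In gene counts: Rbm27 in Btbd7 KO (-0.053 to 0.020), clone 2 (-0.037 to 0.053) and clone 3 (-0.0071 to 0.066), Ncbp2 in clone 1 (-0.12 to 0.076) and clone 2 (-0.025 to 0.10), Pabpn1 in clone 2 (-0.037 to 0.15), Zc3h18 in clone 2 (-0.14 to 0.058), clone 3 (-0.024 to 0.19) and the KO mean (-0.14 to 0.069), and Zfc3h1 in the KO mean (-0.0094 to 0.12). In PROMPT regions: Zfc3h1 (-0.24 to 0.094), Pabpn1 (-0.071 to 0.25), Zc3h3 (-0.44 to 0.27) and Phax (-0.84 to 0.075) in Btbd7 KO, and Ncbp1 against Btbd7 KO (-0.14 to 0.33). In ratios in Btbd7 KO: Zfc3h1 (-0.11 to 0.30), Pabpn1 (-0.27 to 0.075), Zc3h3 (-1.23 to 0.061), Ncbp2 (-0.17 to 0.16) and Phax (-1.01 to 0.13). In other ratios: Srrt in clone 1 (-0.10 to 0.051), clone 2 (-0.12 to 0.0054), clone 3 (-5.46e-05 to 0.13) and the KO mean (-0.073 to 0.054), and in clone 2 Ncbp1 (-0.094 to 0.11) and Phax (-0.59 to 0.52). Depth limits the Phax region most, at 0 to 18 counts per library.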
